A study of Mus musculus with 6 samples.

Results

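Expression of 10 genes of the MHC class I pathway was followed with and without OHT in FLICs, which the labels describe as differentiated ES cells, and in undifferentiated mouse embryonic stem (ES) cells. The 10 genes, of 22600 in the count table, are the heavy chains H2-K1, H2-D1 and H2-M10.4, the light chain B2m, the peptide transporter subunits Tap1 and Tap2, the loading factor Tapbp, the immunoproteasome subunits Psmb8 and Psmb9, and the transcriptional activator Nlrc5. H2-M10.4 was chosen by its counts, for its rise with OHT in ES cells, so its values are a description with no test. The other 9 were listed for their function, with earlier results of these data known.

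The groups were FLICs with OHT (1 library), untreated FLICs (1 library), ES cells with OHT (2 libraries) and untreated ES cells (2 libraries). All cells were labelled C57BL/6 and were cultured for 96 h, and OHT (hydroxytamoxifen, a tamoxifen metabolite) was given for 3 days. OHT groups carry the genotype label TRF2-/-, and untreated groups are labelled wild-type. No library had OHT without the TRF2-/- label, so OHT itself and loss of the telomere-binding protein TRF2 cannot be told apart. The labels name neither the allele and recombinase that removed TRF2, nor the number of clones, nor whether replicate libraries stem from different cultures.

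MHC class I molecules show peptides from inside the cell to CD8+ T cells and to natural killer cells. The proteasome cuts proteins into peptides, Tap1 and Tap2 carry these into the endoplasmic reticulum, Tapbp (tapasin) holds the transporter next to empty class I molecules, and a heavy chain with B2m (beta-2 microglobulin) takes the peptide to the surface. Interferon-gamma is the textbook inducer of these genes, and ES cells are known for low surface class I.

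Terf2, the gene of TRF2, followed the labels, with 0.114 CPM (counts scaled to the library total) in FLICs with OHT against 8.27 CPM in untreated FLICs, and 0.281 and 0.392 CPM in ES cells with OHT against 18.3 and 19.5 CPM in untreated ES cells. The 7 pluripotency markers summed to 63.6 and 105 CPM in FLICs with OHT and untreated, and to between 3237 and 3711 CPM in the 4 ES cell libraries. The 8 fibroblast markers summed to 1994 and 1141 CPM in FLICs with OHT and untreated, and to between 7.65 and 11.4 CPM in ES cells. In FLICs most of the sum came from Col1a1 (881 and 495 CPM) and Col3a1 (722 and 422 CPM). Thy1 went the other way, with 0.641 and 0.556 CPM in FLICs with OHT and untreated and 4.42 to 7.41 CPM in ES cells. The 7 leukocyte markers summed to 0.0686 and 0 CPM in the same FLICs libraries, and to between 4.82 and 8.11 CPM in ES cells, where between 2 and 5 of the 7 were at 0. The ES cell libraries with OHT stood apart from each other: 3.7% of 12698 genes differed by at least 2-fold on log2(CPM + 1), and 0 of 12149 between the untreated ones. Trp53, the gene of p53, which the labels do not name as altered, was at 7.82 CPM in FLICs with OHT, 8.98 CPM in untreated FLICs, 8.39 and 83.1 CPM in the ES cell libraries with OHT and 299 and 345 CPM in untreated ES cells.

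RefSeq promoter sequences (GRCm38.p6, 250 bases before to 50 after the start) matched 8 of the 10 genes, all except Tap2 and Nlrc5. Of these, 5 are shown because they belong to the genes on which the results turn: the classical heavy chains and B2m, which moved in opposite directions between cell types, Tap1, which differed between replicates, and H2-M10.4. Capitals mark matches, on either strand, to letters associated with class I control: the interferon-stimulated response element (ISRE, the run of 10 capitals in B2m, whose 2 middle bases may vary), the CCAAT box, the kappa B site (the run of 10 capitals in H2-K1 and H2-D1), the GC box GGGCGG and the TGACG of a cyclic AMP response element (CRE). No match overlapped another in the windows shown.
H2-K1 (chr17:34000298-34000597, minus strand): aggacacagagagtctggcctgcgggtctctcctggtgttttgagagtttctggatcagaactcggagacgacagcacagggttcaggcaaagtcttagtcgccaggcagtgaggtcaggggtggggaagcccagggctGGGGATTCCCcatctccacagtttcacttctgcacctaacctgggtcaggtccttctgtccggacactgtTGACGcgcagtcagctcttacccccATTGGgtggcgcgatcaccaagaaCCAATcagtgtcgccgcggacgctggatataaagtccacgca
H2-D1 (chr17:35262844-35263143, plus strand): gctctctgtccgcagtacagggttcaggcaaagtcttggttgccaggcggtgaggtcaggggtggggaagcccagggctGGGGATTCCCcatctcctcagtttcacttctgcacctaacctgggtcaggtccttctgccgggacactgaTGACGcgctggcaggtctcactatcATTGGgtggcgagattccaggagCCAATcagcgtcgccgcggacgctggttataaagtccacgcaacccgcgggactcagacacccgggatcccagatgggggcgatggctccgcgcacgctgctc
B2m (chr2:122147437-122147736, plus strand): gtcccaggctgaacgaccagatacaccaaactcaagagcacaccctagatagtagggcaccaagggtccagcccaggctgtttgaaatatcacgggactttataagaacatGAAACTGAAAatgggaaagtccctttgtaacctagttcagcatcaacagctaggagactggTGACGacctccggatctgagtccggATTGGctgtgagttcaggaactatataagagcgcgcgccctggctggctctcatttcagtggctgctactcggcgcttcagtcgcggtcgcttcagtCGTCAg
Tap1 (chr17:34187306-34187605, plus strand): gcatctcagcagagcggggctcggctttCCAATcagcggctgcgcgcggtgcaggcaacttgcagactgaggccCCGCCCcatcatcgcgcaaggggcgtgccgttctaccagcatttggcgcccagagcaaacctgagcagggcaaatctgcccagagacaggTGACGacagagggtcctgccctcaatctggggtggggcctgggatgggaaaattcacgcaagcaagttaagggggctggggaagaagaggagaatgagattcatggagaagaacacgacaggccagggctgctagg
H2-M10.4 (chr17:36462280-36462579, minus strand): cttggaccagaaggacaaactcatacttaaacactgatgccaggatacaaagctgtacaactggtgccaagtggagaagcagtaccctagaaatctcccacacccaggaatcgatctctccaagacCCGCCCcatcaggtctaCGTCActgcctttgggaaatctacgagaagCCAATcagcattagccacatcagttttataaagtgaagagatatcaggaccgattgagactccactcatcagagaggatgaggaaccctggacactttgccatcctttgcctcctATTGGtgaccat

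The kappa B site stood in the windows of H2-K1 and H2-D1 and in 0.107% of 32851 promoter windows. The ISRE stood in the B2m window alone among the 8 genes, and in 3.44% of all windows. CCAAT was found in 7 of the 8 genes and 37.4% of all windows, TGACG in 6 of the 8 and 20.8%, and GGGCGG in 4 of the 8 and 35.7%. In H2-K1, H2-D1 and B2m, TGACG preceded ATTGG, the CCAAT box read on the other strand, by 25 bases from first base to first base. TGACG, 20 bases of any kind and ATTGG, an arrangement picked after these windows had been read, occurred in 31 windows (0.0944%) of 27 genes, among them the class I gene H2-M3. The kappa B site began 70 bases before TGACG in H2-K1 and H2-D1, and the ISRE began 61 bases before it in B2m. Aligned bases of the H2-K1 and H2-D1 windows were 89.5% identical, while H2-M10.4 shared 56.8% with H2-K1 and 51.1% with H2-D1. Tap1 and Psmb9 lie head to head with starts 226 bases apart, so 275 bases of the Tap1 window shown are also the Psmb9 window on the other strand. These matches are letters in a window and say nothing of binding.

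Of the 10 genes, 8 lie on chromosome 17 of GRCm38 (GENCODE M21). In order they are Tapbp (chr17:33915899-33929292, plus strand), H2-K1 (chr17:33996017-34000347, minus), Psmb9 (chr17:34181987-34187764, minus), Tap1 (chr17:34187553-34197225, plus), Psmb8 (chr17:34197721-34201454, plus), Tap2 (chr17:34203527-34216321, plus), H2-D1 (chr17:35262730-35267499, plus) and H2-M10.4 (chr17:36458917-36462334, minus). B2m lies at chr2:122147686-122153083 (plus) and Nlrc5 at chr8:94434356-94527272 (plus). Psmb9, Tap1, Psmb8 and Tap2 are thus neighbours within the MHC.

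FLICs and ES cells differed in the balance of transcripts for the 2 chains of a class I molecule. FLICs held far more B2m and Tapbp, while ES cells held more H2-K1 and H2-D1, and this was so with and without OHT. Of the 9 genes open to a test, 8 passed the filter on low counts. Between FLICs and untreated ES cells, 2 of the 8 were called higher and 2 lower (edgeR quasi-likelihood test, adjusted p under 0.05), that is 4 of 8. Of all 15535 genes tested 54.9% were called, 26.2% higher and 28.7% lower. With OHT, 4 of 8 were called again, 2 in each direction, and 57.7% of all genes, 28.4% higher and 29.3% lower. The share of the pathway genes called was thus no higher than the background, and the directions, not the number of calls, are described here. Each FLICs condition has 1 library, which the fit assumes to vary like the ES cell pairs. Without either ES cell library with OHT, 7 of the 8 were called in the untreated comparison, 3 higher and 4 lower, as Tap1, Tap2 and Psmb8 then passed, in fits that called 78.4% of all genes. With OHT, 7 were called without ES OHT replicate 1 (2 higher, 5 lower, with 76.5% of all genes) and 5 without ES OHT replicate 2 (3 higher, 2 lower, with 77.2% of all genes). Tap2 was called lower in FLICs in the first of these fits (-0.81, edgeR adjusted p = 0.00619) and higher in the second (2.32, edgeR adjusted p = 9.28e-09). The pluripotency and fibroblast marker sums given above moved with the cell type, and their part in these results was not tested. Trp53 was at 8.98 CPM in untreated FLICs against 299 and 345 CPM in untreated ES cells. With OHT it was at 7.82 CPM in FLICs against 8.39 and 83.1 CPM in ES cells. Its part in these results was not tested either.

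**Figure D1:**
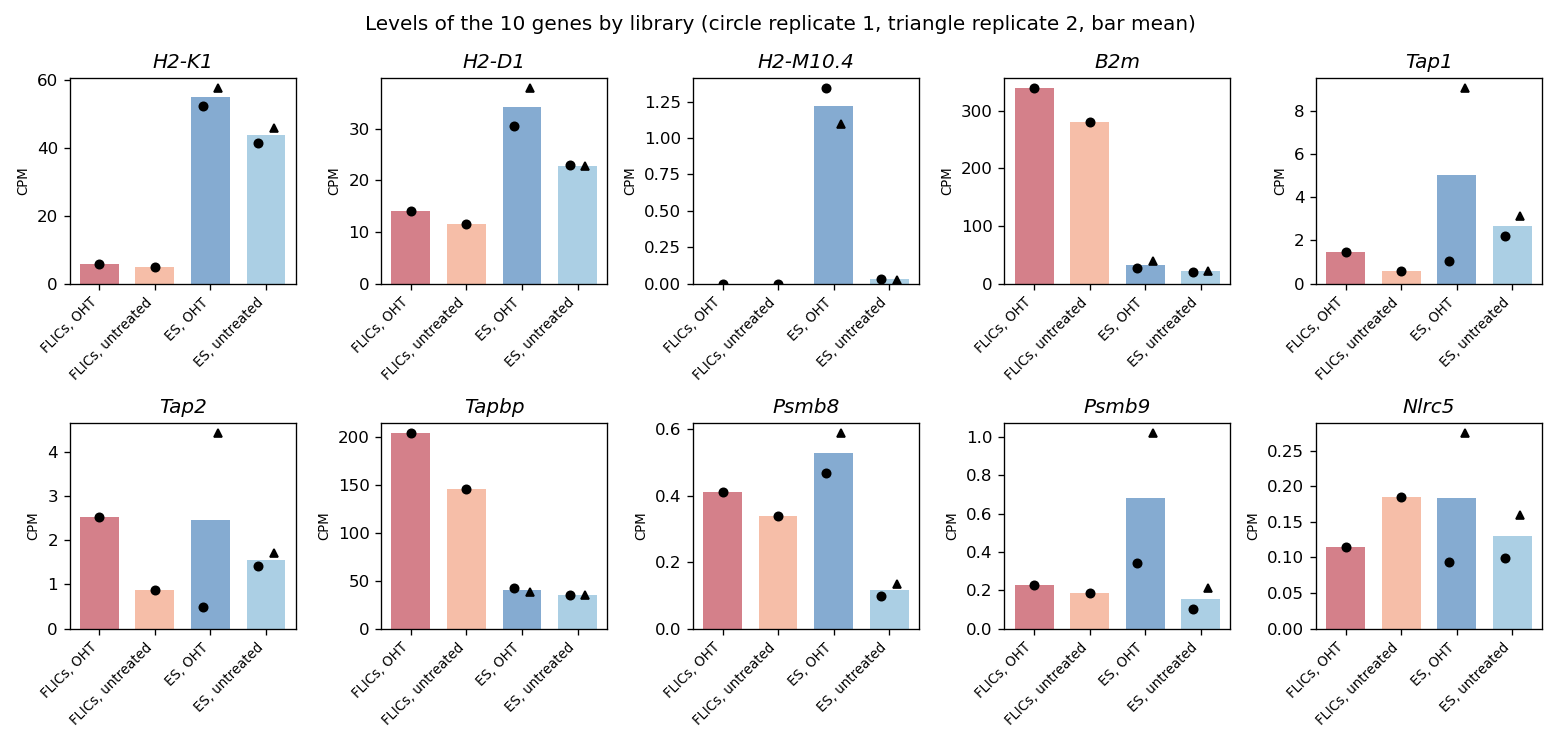
Levels of the 10 genes in CPM (y axis, linear, from 0, a separate scale per gene) in FLICs with OHT, untreated FLICs, ES cells with OHT and untreated ES cells; bars are group means, circles and triangles are replicates 1 and 2. B2m and Tapbp are highest in FLICs, H2-K1 and H2-D1 in ES cells, and Tap1 and Tap2 differ most between the 2 ES cell libraries with OHT.

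H2-K1, a classical heavy chain that presents peptides on nearly all nucleated cells, had 5.67 CPM in FLICs with OHT, 4.82 CPM in untreated FLICs, 52.3 and 57.7 CPM in ES cells with OHT and 41.5 and 46.1 CPM in untreated ES cells. Both FLICs libraries lay far below the 4 ES cell libraries. Untreated, the log2 fold change of FLICs over ES cells was -3.18 (SE 0.21, edgeR adjusted p = 0.000163), which is 9.09-fold higher in ES cells. With OHT it was -3.28 (SE 0.21, edgeR adjusted p = 0.000139).

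H2-D1, the other classical heavy chain of this strain, had 14.1 CPM in FLICs with OHT, 11.6 CPM in untreated FLICs, 30.6 and 37.8 CPM in ES cells with OHT and 22.9 and 22.7 CPM in untreated ES cells. It was lower in FLICs by -0.97 on the log2 scale untreated (SE 0.22, edgeR adjusted p = 0.0117) and by -1.28 with OHT (SE 0.22, edgeR adjusted p = 0.00420). The untreated call was lost without either untreated ES cell library (edgeR adjusted p = 0.0801 without replicate 1 and 0.0775 without replicate 2). The pair summed to 19.8 CPM in FLICs with OHT, 16.4 CPM in untreated FLICs, 82.8 and 95.5 CPM in ES cells with OHT and 64.4 and 68.7 CPM in untreated ES cells. The sum matters because the transcripts of both genes share sequence: 22.8% of the 31-base words of H2-K1 and 26.7% of those of H2-D1 occur in other genes, and how shared reads were assigned is not given in the sources used here.

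B2m, the light chain common to class I molecules, had 339 CPM in FLICs with OHT, 281 CPM in untreated FLICs, 26.3 and 38.6 CPM in ES cells with OHT and 20.4 and 22.1 CPM in untreated ES cells. The lower FLICs library was above every ES cell library by a wide margin. The log2 fold change of FLICs over ES cells was 3.72 untreated (SE 0.25, edgeR adjusted p = 0.000165), or 13.2-fold, and 3.39 with OHT (SE 0.25, edgeR adjusted p = 0.000206). Patl2 lies over the whole of B2m on the opposite strand and had 0 counts in FLICs and 101 to 143 in ES cells. Whether counting used the strand is not given in the sources used here.

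Tapbp, which edits the peptides loaded onto class I, had 204 CPM in FLICs with OHT, 146 CPM in untreated FLICs, 42.6 and 38.0 CPM in ES cells with OHT and 34.6 and 34.8 CPM in untreated ES cells. FLICs libraries again lay above all ES cell libraries. The log2 fold change was 2.07 untreated (SE 0.16, edgeR adjusted p = 0.000243) and 2.34 with OHT (SE 0.16, edgeR adjusted p = 0.000157). Tapbp overlaps Zbtb22 on the same strand over 3422 bases of the genome, and Zbtb22 moved far less, with 53.2 CPM in FLICs with OHT, 59.8 CPM in untreated FLICs, 40.3 and 36.6 CPM in ES cells with OHT and 50.7 CPM in both untreated ES cell libraries.

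Scaled to gene length (CPM per kb of the deposited length), B2m had the highest value of the 10 in each group, but its ratio to the classical heavy chains differed. The deposited length of B2m is 357 bases, while its 1 annotated transcript holds 830 different 31-base words. Its rank in ES cells and the size of its ratios thus depend on the length used. Another B2m length would scale its ratio alike in all libraries. B2m over the sum of H2-K1 and H2-D1 was 55.2 in FLICs with OHT, 55.1 in untreated FLICs, 1.03 and 1.31 in ES cells with OHT and 1.03 and 1.05 in untreated ES cells. The heavy chains also changed order. H2-K1 over H2-D1 was 0.394 in FLICs with OHT and 0.406 in untreated FLICs, against 1.67 and 1.49 in ES cells with OHT and 1.77 and 1.98 in untreated ES cells. In these ratios the FLICs libraries lay outside the range of the 4 ES cell libraries.

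**Figure D2:**
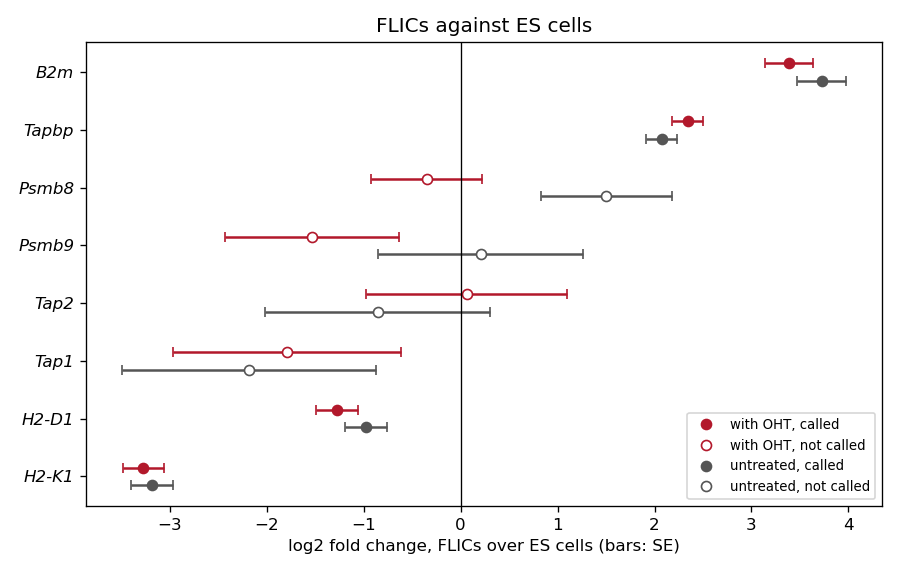
Log2 fold change of FLICs over ES cells (x axis) for the 8 tested genes, with OHT (red) and untreated (grey); bars are SE, filled points were called and open points were not. B2m and Tapbp lie on the positive side, H2-K1 and H2-D1 on the negative side, and no other gene of the 8 was called.

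The transporter and immunoproteasome genes were low everywhere and were not called between cell types. Tap1 gave a log2 fold change of FLICs over ES cells of -2.18 untreated (SE 1.31, edgeR adjusted p = 0.202) and -1.79 with OHT (SE 1.18, edgeR adjusted p = 0.235). Tap2 gave -0.86 untreated (SE 1.16, edgeR adjusted p = 0.556) and 0.06 with OHT (SE 1.04, edgeR adjusted p = 0.961). Both genes varied widely between the ES cell libraries with OHT, so their errors were wide. Within a library the subunits kept a ratio by cell type: Tap1 over Tap2 per kb was 0.550 in FLICs with OHT and 0.658 in untreated FLICs, against 1.98 or more in both ES cell libraries with OHT and 1.51 and 1.77 in untreated ES cells.

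Psmb8 and Psmb9 replace the constitutive catalytic subunits Psmb5 and Psmb6 in the immunoproteasome. Psmb8 gave 1.502 untreated (SE 0.68, edgeR adjusted p = 0.108) and -0.35 with OHT (SE 0.57, edgeR adjusted p = 0.624), and Psmb9 gave 0.21 (SE 1.06, edgeR adjusted p = 0.881) and -1.53 (SE 0.90, edgeR adjusted p = 0.189). Per kb, Psmb8 made up 0.154% of the sum with Psmb5 in FLICs with OHT, 0.123% in untreated FLICs, 0.231% and 0.236% in ES cells with OHT and 0.0454% and 0.0592% in untreated ES cells. Psmb9 made up 0.0783% of the sum with Psmb6 in FLICs with OHT, 0.0609% in untreated FLICs, 0.0942% and 0.178% in ES cells with OHT and 0.0287% and 0.0562% in untreated ES cells. The constitutive subunits thus supplied nearly all transcripts of both pairs. Psmb10, the remaining immunoproteasome subunit, was different, at 6.998% and 7.43% of its sum with Psmb7 in FLICs with OHT and untreated, 8.86% and 6.80% in ES cells with OHT and 7.77% and 6.18% in untreated ES cells.

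Nlrc5, the activator that drives class I genes through their promoters, did not pass the filter and was not tested. Its counts were 5 in FLICs with OHT, 6 in untreated FLICs, 3 and 7 in ES cells with OHT and 3 and 6 in untreated ES cells. These equal 0.0936 to 0.274 CPM, and a count of 3, the limit that a count of 0 allows, equals 0.0686 to 0.118 CPM by library. Differences in Nlrc5 were not detectable at this depth.

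**Figure D3:**
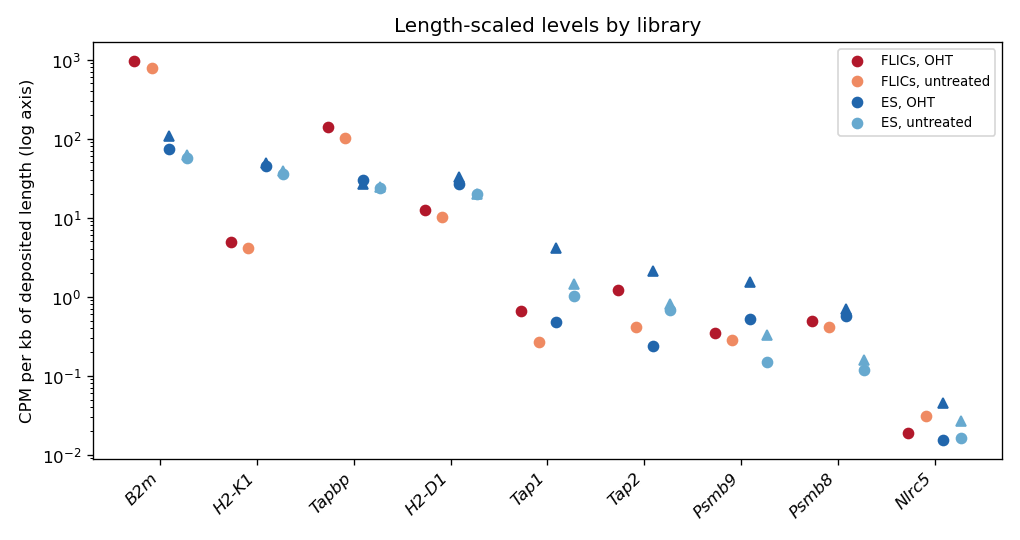
Levels per length (y axis, CPM per kb of deposited length, log axis) of 9 of the genes by library, for FLICs with OHT, untreated FLICs, ES cells with OHT and untreated ES cells; circles are replicate 1 and triangles replicate 2. H2-M10.4 is left out because it is at 0 in FLICs; the B2m points stand highest in each group, and Nlrc5 lies at the bottom.

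The order of the 10 genes per deposited length can be read within a group, with the limit on the length of B2m given above. In untreated ES cells the means were 59.6 CPM per kb for B2m, 37.5 for H2-K1, 24.1 for Tapbp, 19.97 for H2-D1, 1.23 for Tap1, 0.742 for Tap2, 0.238 for Psmb9, 0.140 for Psmb8, 0.0301 for H2-M10.4 and 0.0215 for Nlrc5. Among neighbours in that order, only the replicate ranges of Psmb9 and Psmb8 overlapped. In untreated FLICs, with 1 library, the order was B2m at 787 CPM per kb, Tapbp at 101, H2-D1 at 10.16, H2-K1 at 4.13, Tap2 at 0.410, Psmb8 at 0.409, Psmb9 at 0.282, Tap1 at 0.270, Nlrc5 at 0.0307 and H2-M10.4 at 0.

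Profiles across the 6 libraries were compared for 9 of the genes, as Nlrc5 did not pass the filter. The pairs with the most alike profiles were Psmb8 with Psmb9 (root mean square distance 0.561 of centred log2 CPM, Pearson r 0.765), H2-D1 with Psmb9 (0.667, r 0.632), B2m with Tapbp (0.693, r 0.985) and Tap1 with Tap2 (0.730, r 0.799). H2-K1 and B2m were the farthest apart (3.20, r -0.962). These describe 6 libraries from 4 groups. Psmb8 and Psmb9 had 3 to 26 counts per library, so pairs with either gene rest on few counts. Outside the 10, Ldhb was nearest to H2-D1 (0.0720), Dynlt3 to B2m (0.0719), Slc44a2 to Tapbp (0.0632) and Lrrc9 to H2-K1 (0.108).

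OHT in ES cells was examined next. Of the 8 tested genes, 0 were called by edgeR at an adjusted p under 0.05, where 0.534% of 15535 genes were called, 0.521% higher and 0.0129% lower. DESeq2 also called 0 of the 8. At an unadjusted p under 0.05, 4 of the 8 passed, all higher, against 2841 of all genes (18.3%), of which 1631 were higher. The log2 fold change was above 0 in 8 of 8, where 48.7% of all genes were above 0, with a median of 0.62 against -0.0082 over all genes tested. These 8 leave out Nlrc5 and H2-M10.4. Psmb9 reached the filter on low counts only in the ES cell libraries with OHT, where it was high. Its place in the 8 of 8, in the 4 of the 8 and in the median is therefore no support for a rise. The pattern was not particular to the pathway: of 8 tested class II genes, 4 also had an unadjusted edgeR p under 0.05, all higher. Trp53 was lower in both OHT libraries than in both untreated ones, and its part in these results was not tested.

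In 6 of the 9 genes open to a test, both OHT libraries lay above both untreated ones, a pattern seen in 25.2% of all genes tested. The 6 include Psmb9, whose place is no support for a rise for the reason given above. The 9 include Nlrc5, which is not among the genes tested. The ranges overlapped for Tap1, Tap2 and Nlrc5. H2-K1 averaged 54.97 ± 3.82 CPM with OHT and 43.8 ± 3.19 CPM untreated (SD, n = 2 each), and H2-D1 averaged 34.2 ± 5.13 CPM with OHT and 22.8 ± 0.143 CPM untreated. Their sum was 1.34-fold higher with OHT. B2m averaged 32.5 ± 8.69 CPM with OHT and 21.3 ± 1.24 CPM untreated, and Tapbp 40.3 ± 3.25 CPM with OHT and 34.7 ± 0.182 CPM untreated. None of these differences passed the test: the log2 fold changes were 0.33 for H2-K1 (SE 0.14, edgeR adjusted p = 0.294), 0.58 for H2-D1 (SE 0.17, edgeR adjusted p = 0.179), 0.61 for B2m (SE 0.21, edgeR adjusted p = 0.225) and 0.22 for Tapbp (SE 0.13, edgeR adjusted p = 0.429).

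Psmb8 and Psmb9 had the highest log2 fold changes of the 8, at very low counts. Psmb8 had 15 and 15 counts in ES cells with OHT against 3 and 5 in untreated ES cells, and 18 and 11 in FLICs with OHT and untreated. Its log2 fold change in ES cells was 2.13 (SE 0.56, edgeR adjusted p = 0.160), from 0.468 and 0.588 CPM with OHT against 0.0993 and 0.133 CPM untreated. Psmb9 had 11 and 26 counts with OHT against 3 and 8 untreated in ES cells, or 0.343 and 1.02 CPM against 0.0993 and 0.213 CPM, and its log2 fold change was 2.04 (SE 0.77, edgeR adjusted p = 0.251). For both, the OHT libraries lay above the untreated ones, though the lower of the untreated counts equalled the limit that a count of 0 allows.

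Tap1 and Tap2 split the ES cell libraries with OHT. Tap1 had 1.03 and 9.06 CPM with OHT (replicates 1 and 2) against 2.22 and 3.11 CPM untreated, and Tap2 had 0.499 and 4.43 CPM with OHT against 1.42 and 1.70 CPM untreated. Replicate 1 thus lay below both untreated libraries and replicate 2 above both. Replicate 2 over replicate 1 was 8.80 for Tap1 and 8.87 for Tap2, 2.97 for Psmb9, 2.93 for Nlrc5 and 1.47 for B2m. On log2(CPM + 1), 2 of the 10 genes, Tap1 and Tap2, differed by at least 2-fold between these libraries, against the 3.7% of all genes given above. Trp53 moved in the same direction between them (9.90-fold), as did the class II gene H2-Eb1 with 2.18 and 41.8 CPM (19.1-fold), a gene named after its values were seen. The 4 endothelial markers summed to 90.6 and 172 CPM in the same libraries, mostly from Pecam1 (83.1 and 152 CPM). Pecam1 was also at 116 and 140 CPM in untreated ES cells. Tek had 4.65 and 17.2 CPM with OHT, Kdr 2.53 and 2.71 CPM, and Cdh5, the other way, 0.406 and 0.353 CPM. The 8 fibroblast markers summed to 9.89 and 11.4 CPM, of which Thy1 gave 4.77 and 7.41 CPM. The 7 leukocyte markers summed to 8.11 and 5.72 CPM, nearly all from Cd3e (8.05 and 5.10 CPM), with 5 and 2 of the 7 at 0. The part of any of these in the result was not tested. In bulk samples fewer cells of a type and less RNA per cell cannot be told apart.

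Over both libraries the log2 fold change with OHT was 0.90 for Tap1 (SE 0.89, edgeR adjusted p = 0.612) and 0.63 for Tap2 (SE 0.88, edgeR adjusted p = 0.730). Each call turned on the library kept. Without OHT replicate 1 the values were 1.75 for Tap1 (edgeR adjusted p = 1.22e-13) and 1.49 for Tap2 (edgeR adjusted p = 1.92e-07), and without OHT replicate 2 they were -1.34 (edgeR adjusted p = 0.000179) and -1.61 (edgeR adjusted p = 0.00036). With 1 OHT library left, that library is assumed to vary like the others. Of the 8 genes, 7 were called higher without OHT replicate 1, and 4 higher and 2 lower without OHT replicate 2, in fits that called 6165 and 4382 genes (40.2% and 28.7%).

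**Figure D4:**
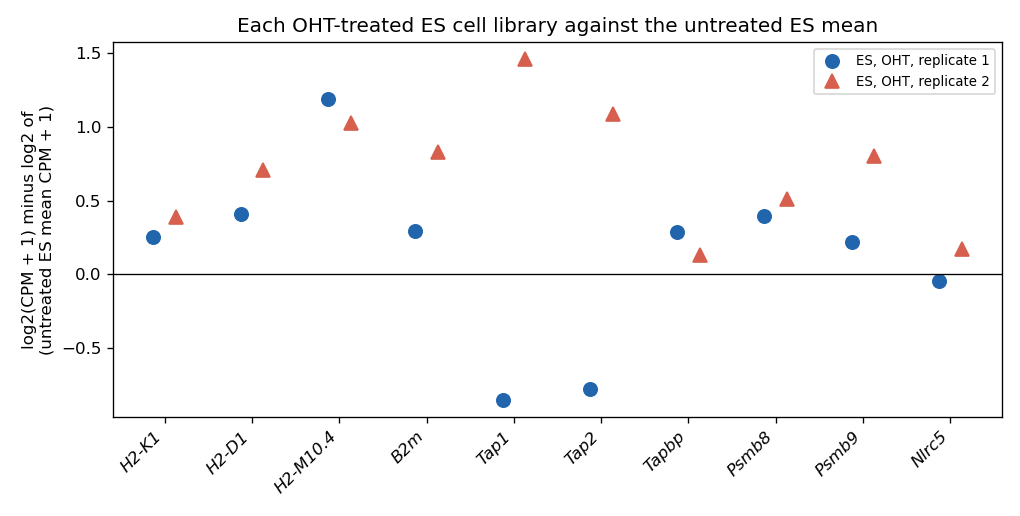
Each ES cell library with OHT (circle replicate 1, triangle replicate 2) against the mean of the untreated ES cell libraries, as a difference of log2(CPM + 1) (y axis) for the 10 genes. H2-K1, H2-D1, H2-M10.4, B2m, Tapbp, Psmb8 and Psmb9 are above 0 in both libraries, Tap1 lies at -0.85 and 1.46, and Tap2 at -0.77 and 1.08.

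H2-M10.4 belongs to the H2-M10 family of class I genes, known from sensory neurons of the mouse vomeronasal organ. It had 43 and 28 counts in ES cells with OHT against 1 and 1 in untreated ES cells, and 0 counts in both FLICs libraries. These are 1.34 and 1.10 CPM with OHT and 0.0331 and 0.0266 CPM untreated in ES cells. The summed counts, 71 with OHT and 2 untreated, give a ratio of 41.8 (exact 95% counting interval 11.2 to 352, counting error only). Against FLICs with OHT, set to 3 counts, the level in ES cells with OHT was at least 17.8-fold higher. None of this is tested, since the ES cell values chose the gene.

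Per length, H2-M10.4 averaged 1.23 CPM per kb in ES cells with OHT and 0.0301 CPM per kb in untreated ES cells, rank 15 and rank 20 of 30 class I heavy chain genes, where the mean of H2-M5 ranked first in both groups. The 5 other H2-M10 genes on the list had at most 7 counts in any library. Of the 31-base words of its transcripts, 20.1% also occur in other genes, mostly H2-M10.6, H2-M10.2 and H2-M10.1, so its counts are less certain than those of B2m, which shares 0%. The genes with the most alike profile were Spz1 (distance 0.286), Ankrd22 (0.288) and Apol7b (0.312), over the 6 libraries. Spz1 had 1.44 and 1.06 CPM in ES cells with OHT and 0 CPM in the other 4 libraries. Ankrd22 had 0.936 and 0.667 CPM, and Apol7b 0.842 and 0.706 CPM, in ES cells with OHT.

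OHT in FLICs has 1 library per condition and no test. Of the 10 genes, 6 had a mean of at least 1 CPM, and 6 of 6 were higher with OHT, as were 56.4% of all such genes, and 0 of 6 passed 2-fold on log2(CPM + 1), against 0.526% of 11789 genes. Their median difference was 0.38, and that of all genes 0.034. Tap2 had 2.54 CPM with OHT and 0.864 CPM untreated, a ratio of 2.94 (exact 95% counting interval 1.93 to 4.62). Tap1 had 1.44 CPM with OHT and 0.586 CPM untreated, a ratio of 2.46 (1.45 to 4.35). The transporter genes thus had the highest ratios, on 111 and 63 counts with OHT against 28 and 19 untreated. The ratio was 1.40 for Tapbp (1.35 to 1.45), 1.21 for B2m (1.18 to 1.24), 1.21 for H2-D1 (1.07 to 1.38) and 1.18 for H2-K1 (0.960 to 1.45). Beside these, the fibroblast marker sum was 1994 CPM with OHT and 1141 CPM untreated, and its part in the result was not tested.

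The test of the difference between both OHT responses (FLICs minus ES cells) called 0 of the 8 genes with edgeR at an adjusted p under 0.05, and 0% of 15535 genes. At an unadjusted p under 0.05 it passed 0 of the 8 and 1057 of all genes, and DESeq2 called 0 of the 8 and 20 of all. The log2 differences ran from -1.85 for Psmb8 (SE 0.89, edgeR adjusted p = 0.745) to 0.92 for Tap2 (SE 1.54, edgeR adjusted p = 0.945). Without ES OHT replicate 1, B2m was called (-0.59, edgeR adjusted p = 0.0173), and without ES OHT replicate 2, Tap1 (2.64, edgeR adjusted p = 1.76e-05) and Tap2 (3.16, edgeR adjusted p = 1.93e-07) were. Over all libraries the errors of the transporter genes exceed their differences, so these libraries do not show whether FLICs and ES cells responded alike. Both cell type comparisons and the OHT comparisons share libraries and are not independent.

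Among 27 other class I heavy chain genes, 18 were tested. Between FLICs and untreated ES cells 2 were called higher and 9 lower by edgeR (26.2% and 28.7% of all genes), with a median log2 fold change of -2.23 against -0.11 over all genes. The higher ones were H2-T23, which encodes Qa-1, a ligand of inhibitory natural killer receptors, and H2-M3, which presents N-formylated peptides. H2-T23 had 7.96 CPM in FLICs with OHT, 6.42 CPM in untreated FLICs, 0.499 and 0.863 CPM in ES cells with OHT and 0.232 and 0.532 CPM in untreated ES cells (4.03 untreated on the log2 scale, edgeR adjusted p = 0.00135). H2-M3 had 7.62 CPM in FLICs with OHT, 5.83 CPM in untreated FLICs, 1.498 and 2.94 CPM in ES cells with OHT and 1.29 and 1.41 CPM in untreated ES cells (2.11, edgeR adjusted p = 0.0077). These genes followed B2m rather than H2-K1 in direction.

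H2-M5, at 53.7 CPM per kb in ES cells with OHT and 59.5 CPM per kb in untreated ES cells, had the highest mean per length of the heavy chain genes in both. In ES OHT replicate 1, however, it was at 42.2 CPM per kb and H2-K1 at 44.8. H2-M5 had 0.824 CPM in FLICs with OHT, 0.957 CPM in untreated FLICs, 46.8 and 72.3 CPM in ES cells with OHT and 66.1 and 65.9 CPM in untreated ES cells (-6.10 untreated, edgeR adjusted p = 0.000168). H2-T3, which encodes the thymus leukaemia antigen, had 0 counts in untreated FLICs, at least 30.0-fold lower than in untreated ES cells when set to 3 counts. Hfe, which takes part in iron control, had a log2 fold change of -3.21 (edgeR adjusted p = 0.0158), and H2-Q7, a Qa-2 gene, -3.20 (edgeR adjusted p = 0.0068). The sum over all 30 heavy chain genes was 56.8 CPM in FLICs with OHT, 43.3 CPM in untreated FLICs, 168 and 216 CPM in ES cells with OHT and 163 and 170 CPM in untreated ES cells.

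With OHT, 3 of the 18 were called higher and 9 lower between FLICs and ES cells (28.4% and 29.3% of all genes). Among the 18, Mr1 reached the filter on low counts only in FLICs with OHT. It had 18 counts there and 0 in both ES cell libraries with OHT, so a higher value of Mr1 is no support for a difference. Within ES cells OHT gave 0 calls of 18, and 1 gene had an unadjusted edgeR p under 0.05, against 18.3% of all genes. That gene was H2-Q4, named after its values were seen, with 7.46 and 7.65 CPM in ES cells with OHT against 3.11 and 3.25 CPM in untreated ES cells (log2 fold change 1.25, SE 0.20, edgeR adjusted p = 0.0759). Of the 31-base words of H2-Q4, 38.4% also occur in other genes, mostly H2-Q6, H2-D1 and H2-K1, so its count is uncertain. H2-M5 averaged 59.6 CPM with OHT and 66.0 CPM untreated (log2 fold change -0.15, edgeR adjusted p = 0.751), and Fcgrt, the neonatal Fc receptor, 9.06 and 9.10 CPM.

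**Figure D5:**
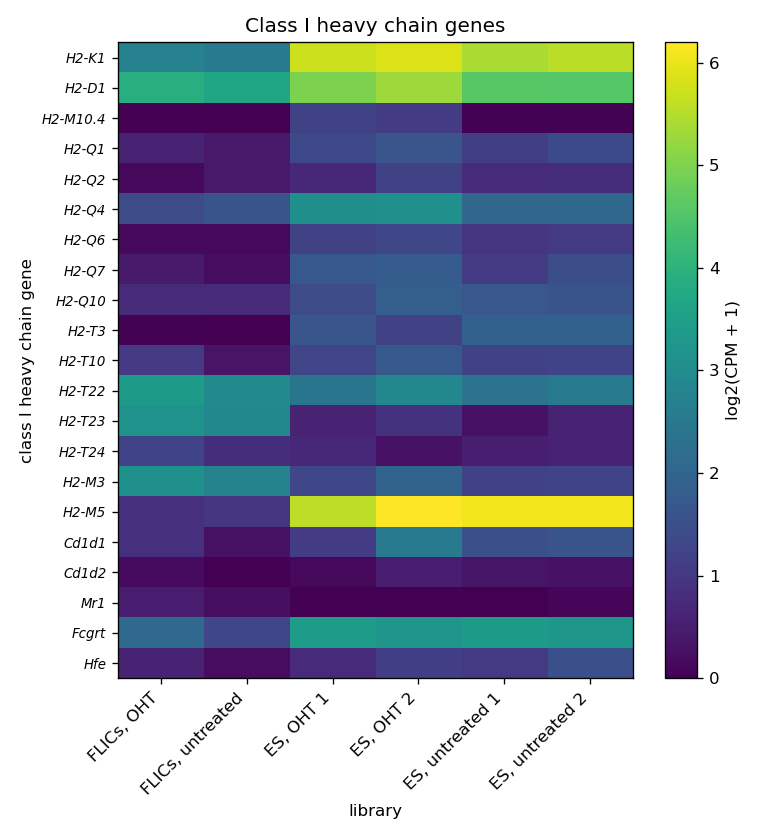
Levels of 21 class I heavy chain genes (rows) that passed the count filter in the 6 libraries (columns), coloured by log2(CPM + 1). H2-K1, H2-D1 and H2-M5 are brighter in ES cells than in FLICs, H2-T23 and H2-M3 are brighter in FLICs, and H2-M10.4 is above the dark floor only in the ES cell libraries with OHT.

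For the other steps of the pathway, shares called are read against all genes, of which 54.9% were called between untreated FLICs and ES cells (26.2% higher, 28.7% lower). Of 8 loading and trimming genes, 4 were called higher in untreated FLICs and 0 lower, so the share called was no higher than that background. Erap1, which trims peptides in the endoplasmic reticulum, had 42.7 CPM in FLICs with OHT, 28.4 CPM in untreated FLICs, 4.90 and 4.35 CPM in ES cells with OHT and 4.07 and 4.15 CPM in untreated ES cells (2.79 untreated on the log2 scale, edgeR adjusted p = 0.000179). Pdia3, the ERp57 protein of the loading complex, was 1.04 higher (edgeR adjusted p = 0.0085), Lnpep 0.67 higher (edgeR adjusted p = 0.048) and Bcap31 0.59 higher (edgeR adjusted p = 0.0417). Of 5 further immunoproteasome and activator genes, Psme2 (1.48, edgeR adjusted p = 0.00261) and Psme1 (0.68, edgeR adjusted p = 0.012), the PA28 activator subunits, were higher, and Psme3, a different activator, was lower (-0.95, edgeR adjusted p = 0.00544). Of 14 core proteasome genes 3 were called higher and 0 lower, a smaller share than over all genes: Psma7, Psmb1 and Psma3, with log2 fold changes of 1.17, 1.10 and 0.47.

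Of 16 regulators of class I genes, 7 were called higher and 5 lower in untreated FLICs, where 26.2% of all genes were higher and 28.7% lower. Irf2, which binds interferon-response elements, had 18.9 CPM in FLICs with OHT, 14.1 CPM in untreated FLICs, 0.530 and 0.588 CPM in ES cells with OHT and 0.199 and 0.319 CPM in untreated ES cells (5.72 untreated, edgeR adjusted p = 9.12e-05). The kappa B factors Nfkb1 (1.57, edgeR adjusted p = 0.000865) and Rela (1.38, edgeR adjusted p = 0.0068) and the CRE factor Creb1 (0.98, edgeR adjusted p = 0.0247) were also higher. The Polycomb genes Suz12 (-1.96, edgeR adjusted p = 0.00431) and Eed (-1.84, edgeR adjusted p = 0.00108) and the CCAAT-binding subunits Nfyb (-0.99, edgeR adjusted p = 0.00582) and Nfyc (-0.86, edgeR adjusted p = 0.0115) were lower. With OHT, 5 regulators were called higher and 4 lower, near the 57.7% called of all genes.

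Of 11 interferon receptor and signalling genes, 5 were called higher and 2 lower in untreated FLICs, near the 54.9% called of all genes. Ifngr1, the ligand-binding chain of the interferon-gamma receptor, had 46.1 CPM in FLICs with OHT, 48.1 CPM in untreated FLICs, 4.34 and 5.25 CPM in ES cells with OHT and 3.57 and 3.89 CPM in untreated ES cells (3.69 untreated, edgeR adjusted p = 9.58e-05). Ifngr2, its signalling partner, had 73.2 CPM in FLICs with OHT, 71.9 CPM in untreated FLICs, 2.53 and 4.04 CPM in ES cells with OHT and 4.14 and 5.51 CPM in untreated ES cells (3.89, edgeR adjusted p = 0.000254). The kinase Jak2 (2.46, edgeR adjusted p = 0.000643) and the receptor chain Ifnar2 (1.91, edgeR adjusted p = 0.00154) were higher as well, and Tyk2 (-1.61, edgeR adjusted p = 0.00268) and Stat2 (-0.96, edgeR adjusted p = 0.0114) lower. With OHT, 6 were called higher and 3 lower, where 57.7% of all genes were called.

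Class II genes and natural killer ligands served as neighbours of the pathway. Of 8 tested class II genes, 1 was called higher and 4 lower in untreated FLICs (26.2% and 28.7% of all genes), among the lower ones H2-Eb1 with 0 counts in FLICs with OHT and 1 in untreated FLICs, and H2-DMb1, at 0 counts in untreated FLICs. Of 4 tested natural killer ligands none was called by edgeR untreated. At an unadjusted edgeR p under 0.05, 3 of the 4 passed, against 61.4% of all genes. With OHT, Raet1d was called lower (-1.01, edgeR adjusted p = 0.0464), where 57.7% of all genes were called. OHT in ES cells gave 0 calls among the 84 tested genes of all these lists, with 12 at an unadjusted p under 0.05 (14.3%, against 18.3% of all genes). Class II genes gave 4 of these 12, all higher. The medians ran from -0.22 for natural killer ligands to 0.65 for class II genes, against -0.0082 over all genes. Core proteasome genes were above 0 in 13 of 14 with a median of 0.17, where 48.7% of all genes were above 0. Of these 14, 0 had an unadjusted edgeR p under 0.05.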

How the data were processed

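RNA of 6 samples was sequenced from stranded total RNA libraries, per the labels' protocols. Whole-number counts were deposited by the authors for 22600 Ensembl genes, not normalized, beside gene lengths, of which 77.6% are multiples of 3 (coding length). Salmon, DESeq2 and GRCm38 are named in the submitters' processing notes; versions, annotation, strand and handling of shared reads are each not given in the sources used here. Symbols matched 22509 genes. Total counts ran from 23534551 to 43965309, so a count of 0 allows up to 0.0686 to 0.118 CPM. Both replicate pairs of ES cells exceeded sampling noise (chi-square over its degrees of freedom 66.3 with OHT and 13.2 untreated).

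From the deposited counts, CPM was computed with TMM-scaled totals. edgeR 4.0.16 (R 4.3.3, limma 3.58.1) fitted 1 mean per group over all 6 libraries after filterByExpr (15535 genes), with 2 residual degrees of freedom and calls at a Benjamini-Hochberg adjusted p under 0.05. The procedure was tested on simulated data. Simulated replicates were drawn independently around 1 mean per group with the fitted spread. They do not show how calls behave where replicates differ systematically. Spread between replicates may be technical, and p-values measure no other spread. FLICs with OHT against untreated FLICs had no test: genes were counted at 2-fold or more on log2(CPM + 1) with a mean of at least 1 CPM. Likeness is the root mean square distance of log2 CPM (prior count 2) centred over the 6 libraries, leaving out model names and pseudogenes. Named genes were the 10, and of each other list up to 4 called genes per direction with the largest changes and a mean of at least 1 CPM, or up to 2 with the highest mean where none was called. The 10 genes and all lists were chosen with earlier results of these data known. Intervals and floors cover counting error only. Promoters are from RefSeq (GRCm38.p6), positions and transcripts from GENCODE M21. Alternatives were DESeq2 1.42.0, relative log expression scaling, 5 CPM in 2 libraries or no count filter, ES cell libraries only, a pseudocount of 0.5, the replicate block and leaving out each ES cell library.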

Additional observations from a re-analysis of the deposited data

How the results depend on the processing

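Of the values for single genes under the alternatives, 63 of 76 for OHT in ES cells, 59 of 68 for FLICs against untreated ES cells, 62 of 68 for FLICs against ES cells with OHT and 64 of 68 for the difference of both responses kept direction and side of the threshold. For OHT in FLICs, 18 of 18 kept their direction and moved by less than their counting intervals, while Tap2 crossed the size rule (0.92, and 1.16 with a pseudocount of 0.5). OHT in ES cells called 83 genes, and 371 with DESeq2, 262 with no count filter, 46 with 5 CPM in 2 libraries, 148 with ES cell libraries only and 1206 with the replicate block, which left 0 of the 8 pathway genes called. Leaving out each ES cell library gave 18 to 6165 genes and 0 to 7 pathway genes: 18 and 20 genes without untreated replicate 1 and 2, and 6165 and 4382 without OHT replicate 1 and 2. FLICs against untreated ES cells then gave 5375 to 12025 genes (5375 and 5391 without untreated replicate 1 and 2) and 3 to 7 of the 8, with Psmb9 from -0.20 to 0.87, and FLICs against ES cells with OHT gave 4 to 7 of the 8. The difference of both responses called 20 genes with DESeq2, 17 with the replicate block and 0 to 2804 when a library was left out (2804 and 2047 without OHT replicate 1 and 2), with 0 to 2 of the 8 called (B2m at -0.59 without OHT replicate 1, Tap1 at 2.64 and Tap2 at 3.16 without OHT replicate 2). With OHT in ES cells, Tap1 ran from -1.34 to 1.75 and Tap2 from -1.61 to 1.49, the low ends without OHT replicate 2 and the high ends without replicate 1. FLICs over ES cells with OHT ran from -2.65 to 0.47 for Tap1 and from -0.81 to 2.32 for Tap2, the low ends without OHT replicate 1 and the high ends without replicate 2, and Tap2 was -0.00125 with DESeq2. The Tap1 difference of responses ran from -0.46 to 2.64. OHT in FLICs passed 62 genes by the size rule, and 112 genes and 1 of the 10, Tap2, with a pseudocount of 0.5. The cause of these shifts was not tested. The libraries share replicate numbers only by title: deviations of equally numbered ES cell libraries correlated at 0.345 over 15535 genes, with 2 pairs, which does not show that they were paired, and the block changed no call among the 8.

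FLICs have 1 library per condition, so their spread is unknown, and the spread used comes from ES cell pairs of which one differed widely. Psmb8, Psmb9, Nlrc5 and H2-M10.4 rest on few counts, so differences in them were at the edge of this depth.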
